A study of Mus musculus with 6 samples.

Results

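Constitutive proteasome subunits are described here as a group of 36 genes out of 19937 genes measured in mammary organoids. The members were all genes whose mouse symbol is Psma, Psmb, Psmc or Psmd followed by a number alone, without the interferon-inducible Psmb8, Psmb9 and Psmb10. All 36 were measured: 16 genes of the core particle (Psma and Psmb) and 20 genes of the regulatory particle (Psmc and Psmd). The name does not hold for every member. Psma8 and Psmb11 encode tissue-restricted subunits known from testis and thymus, and Psmd5, Psmd9 and Psmd10 encode chaperones that help to assemble the regulatory particle and then leave it.

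The organoids came from age-matched female FVB mice that carry ErbB3 DOX-KO, an Erbb3 knockout induced by doxycycline (DOX). They were grown in growth factor-reduced Matrigel for 14 days, 3 cultures without DOX (control) and 3 cultures with 5 µM DOX. Every culture, control cultures included, carries the same inducible alleles, and the age of the mice and the driver of the knockout are not given in the labels. No DOX-treated culture without those alleles is among the samples, so an effect of the drug and an effect of losing Erbb3 cannot be told apart. The labels do not say whether the 3 biological replicates came from different mice, and p values then measure only the spread between these samples, which may be technical.

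The proteasome is the barrel-shaped protease that degrades proteins tagged with ubiquitin. Its core particle stacks rings of alpha subunits, which form the gate, around rings of beta subunits, and the beta subunits encoded by Psmb5, Psmb6 and Psmb7 cut the protein chain. The regulatory particle caps the barrel: a ring of ATPases (Psmc genes) unfolds the substrate, base subunits bind ubiquitin chains, and a lid holds the enzyme that removes ubiquitin. Interferon can exchange the cutting subunits for those of the immunoproteasome. When proteasome activity is short, the transcription factor encoded by Nfe2l1 is known to raise the genes of all these parts together.

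RNA of each culture was measured on 1 array, and values are log2 levels per probe set. DOX replicate 2 stood apart: it correlated with the other arrays at 0.816 to 0.865 across genes, and its upper quartile was 6.90 against 7.34 to 7.46 on the other 5. Erbb3 read 9.78, 9.71 and 9.69 on control arrays and 10.36, 9.31 and 9.82 on the arrays labelled DOX, a difference of 0.10 (SE 0.29, limma adjusted p = 0.845). In the fit to the 5 arrays other than DOX replicate 2 it was 0.37 (limma adjusted p = 0.105, interval 0.03 to 0.70 at 95% confidence), and both remaining DOX arrays lay above control. With 6 arrays its interval at 95% confidence ran from −0.58 to 0.79. Erbb3 was thus not seen to be lower, and directions below follow the arrays as labelled. Where its probes lie relative to the deleted part of the gene is not known here, so these values check neither the labels nor the knockout. The luminal epithelial markers Krt8 and Krt18 were 2 of 5 markers that were lower without DOX replicate 2, and the mean of these markers was 10.40 to 10.43 on control arrays and 10.05, 9.44 and 10.05 on the DOX arrays. The leukocyte markers Cd68 and Ptprc were 2 of 4 that were higher without DOX replicate 2, and Csf1r and Cd3e differed by −0.08 and 0.08. Their list mean was 5.55 to 5.64 on control arrays and 5.86, 6.23 and 6.05 on the DOX arrays. On DOX replicate 2 Cd68 itself differed by −0.57 from control. The basal, fibroblast, adipocyte and endothelial list means were also above every control array there. On that array genes of low control level read high in general. With genes in 10 equal steps of control level, the median gene of step 3 differed by 0.79. Against the medians of their own steps, the medians of these 4 lists lay at 0.20, 0.59, 0.10 and −0.05. The luminal and leukocyte lists lay at 0.05 and 0.20. None of the fibroblast, adipocyte or endothelial markers passed with either set of arrays, and of 5 basal markers Krt14 alone was lower without DOX replicate 2. The part of these markers in the results below was not tested. In bulk samples fewer cells of a type and less RNA per cell cannot be told apart.

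DOX replicates 1 and 3 both lay below every control array in 12 of 16 core subunits and 12 of 20 regulatory subunits, and both lay above in 2 regulatory subunits. Over all genes both lay below in 26.2% and above in 25.4%, and they lay below in 41.8% of genes in the top 2 of 10 equal steps of control level, where 34 members lie. Past the test's threshold were 11 and 6 of those lower members, among them every widely used beta subunit. With all 6 arrays, limma called none of the 36 members in either direction after adjustment over all genes (smallest adjusted p 0.0694, for Psmb1), where 2.26% of all genes were called lower and 0.12% higher. At an unadjusted limma p under 0.05, 13 of the 36 members were lower and none higher, against 10.9% of all genes lower. Of the 3954 other genes in those top 2 steps, 835 were lower at that limit. All 3 DOX arrays lay below all 3 control arrays for 23 members, against 20.3% of all genes and 41.1% of genes in those top 2 steps. All 3 DOX arrays lay above the control arrays for none of the members, against 11.7% of all genes. Without DOX replicate 2, 17 of 36 members fell and 2 rose, and 17 did not pass. In that fit 14.3% of all genes fell and 12.3% rose, and among genes in the top 2 steps of control level 28.1% fell and 18.4% rose. The median log2 difference of the members was −0.69 with 6 arrays and −0.29 with 5, against 0.02 and 0.01 over all genes. The other genes of the top 2 steps had medians of −0.53 with 6 arrays and −0.05 with 5. The 5-array values rest on 2 DOX arrays.

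**Figure D1:**
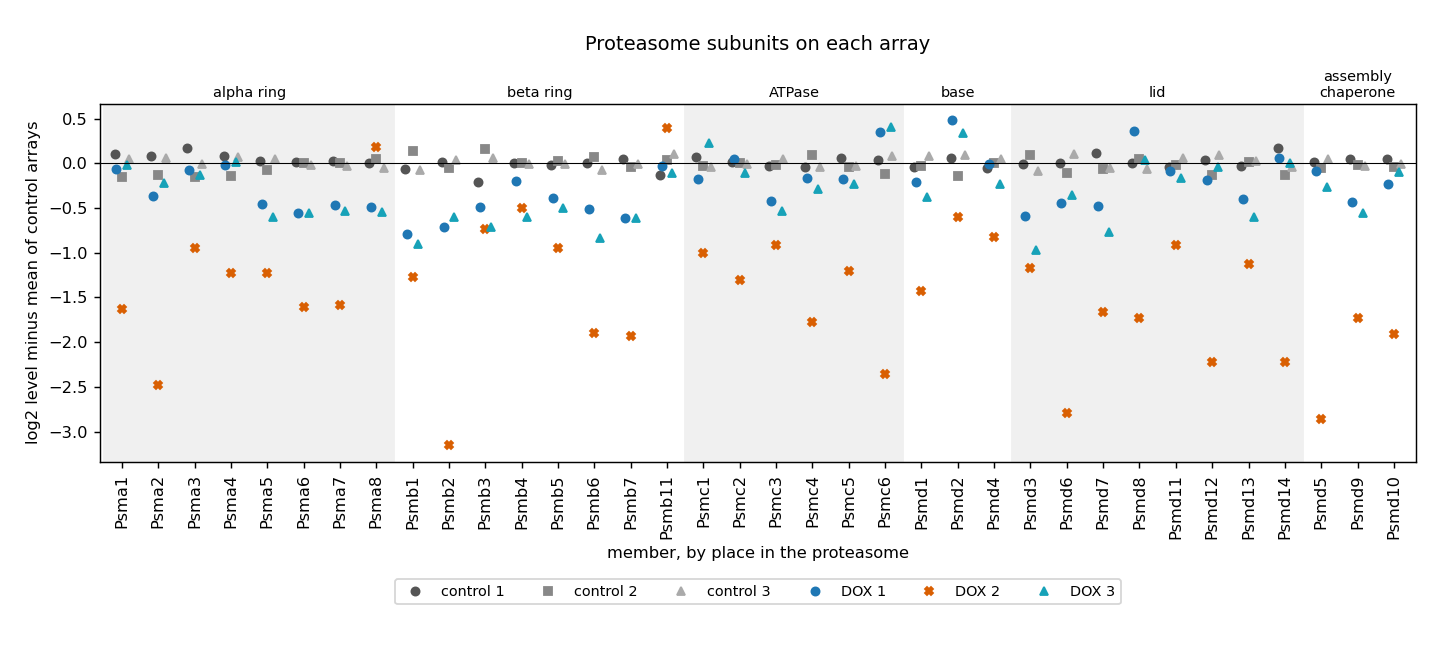
Level of each of the 36 members on each of the 6 arrays, as log2 level minus the mean of the 3 control arrays (vertical axis), with members ordered by place in the proteasome. DOX replicate 2 (crosses) was the lowest of the 6 arrays for 33 members, and DOX replicates 1 and 3 lay within 0.25 of each other for 30 members.

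In the beta ring, without DOX replicate 2, all of Psmb1 to Psmb7 fell, 7 of 7, and the remaining member of the ring, thymic Psmb11, did not pass. Psmb5, which encodes the chymotrypsin-like cutting subunit, read 9.04, 9.09 and 9.05 in control arrays and 8.67, 8.11 and 8.56 in DOX replicates 1, 2 and 3. Every DOX array lay below every control array. The difference was −0.61 (SE 0.21, limma adjusted p = 0.257) with 6 arrays and −0.44 (SE 0.11, limma adjusted p = 0.0116) with 5.

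Psmb6, the caspase-like cutting subunit, read 10.12, 10.18 and 10.04 in control arrays and 9.60, 8.21 and 9.28 in DOX arrays. Psmb7, the trypsin-like cutting subunit, read 10.05, 9.97 and 9.9955 in control arrays and 9.39, 8.07 and 9.39 in DOX arrays. In both genes the groups did not overlap and DOX replicate 2 was far below the other DOX arrays. Without that array Psmb6 fell by 0.67 (SE 0.13, limma adjusted p = 0.00269) and Psmb7 fell by 0.62 (SE 0.11, limma adjusted p = 0.00163), to 62.9% and 65.2% of the control level. With it the differences were −1.08 and −1.06 (limma adjusted p = 0.26 and 0.286).

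Psmb1, a structural subunit of the beta ring, showed the lowest difference of any member without DOX replicate 2. It read 9.49, 9.69 and 9.47 in control arrays and 8.76, 8.28 and 8.64 in DOX arrays. The 3 DOX arrays lay close together here, so that the difference was much alike with 6 arrays (−0.99, SE 0.20) and with 5 (−0.85, SE 0.12, limma adjusted p = 0.000409). The level without DOX replicate 2 was 55.6% of control. The other structural beta subunits fell to between 63.4% (Psmb2) and 75.6% (Psmb4) of control. Psmb4, with a difference of −0.40 (limma adjusted p = 0.0451), lost its call in 6 of 13 alternatives and was −0.20 on DOX replicate 1 alone. Psmb11 read 5.08, 5.26 and 5.32 in control arrays and 5.195, 5.62 and 5.12 in DOX arrays. Its groups overlapped, and its difference of −0.07 had a 95% confidence interval of −0.33 to 0.20.

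In the alpha ring, without DOX replicate 2, Psma5, Psma6, Psma7 and the testis-type Psma8 fell and the other 4 did not pass. In that fit 14.3% of all genes fell, and 28.1% of genes in the top 2 steps of control level. Psma6 read 9.88, 9.87 and 9.85 in control arrays and 9.31, 8.26 and 9.31 in DOX arrays. The groups did not overlap, and DOX replicates 1 and 3 were nearly equal. Psma6 fell by 0.55 (SE 0.11, limma adjusted p = 0.00294) without DOX replicate 2, and Psma5 and Psma7 fell by 0.53 and 0.50.

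Psma4 read 9.68, 9.45 and 9.66 in control arrays and 9.58, 8.37 and 9.62 in DOX arrays. DOX replicates 1 and 3 lay inside the control range. The 5-array difference was below 0.001 in size, with a 95% confidence interval of −0.26 to 0.26. Psma1 and Psma3 also overlapped with control, with differences of −0.04 and −0.10. Psma2, whose 3 DOX arrays all lay below control, differed by −0.29 (limma adjusted p = 0.098). Psma8 read 4.55, 4.59 and 4.49 in control arrays and 4.06, 4.73 and 3.998 in DOX arrays, and fell by 0.52 (SE 0.11, limma adjusted p = 0.00503) without DOX replicate 2. Its level lies below the median control level of all genes, 5.93, and in its step of control level the median gene read 0.79 higher than control on DOX replicate 2.

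**Figure D2:**
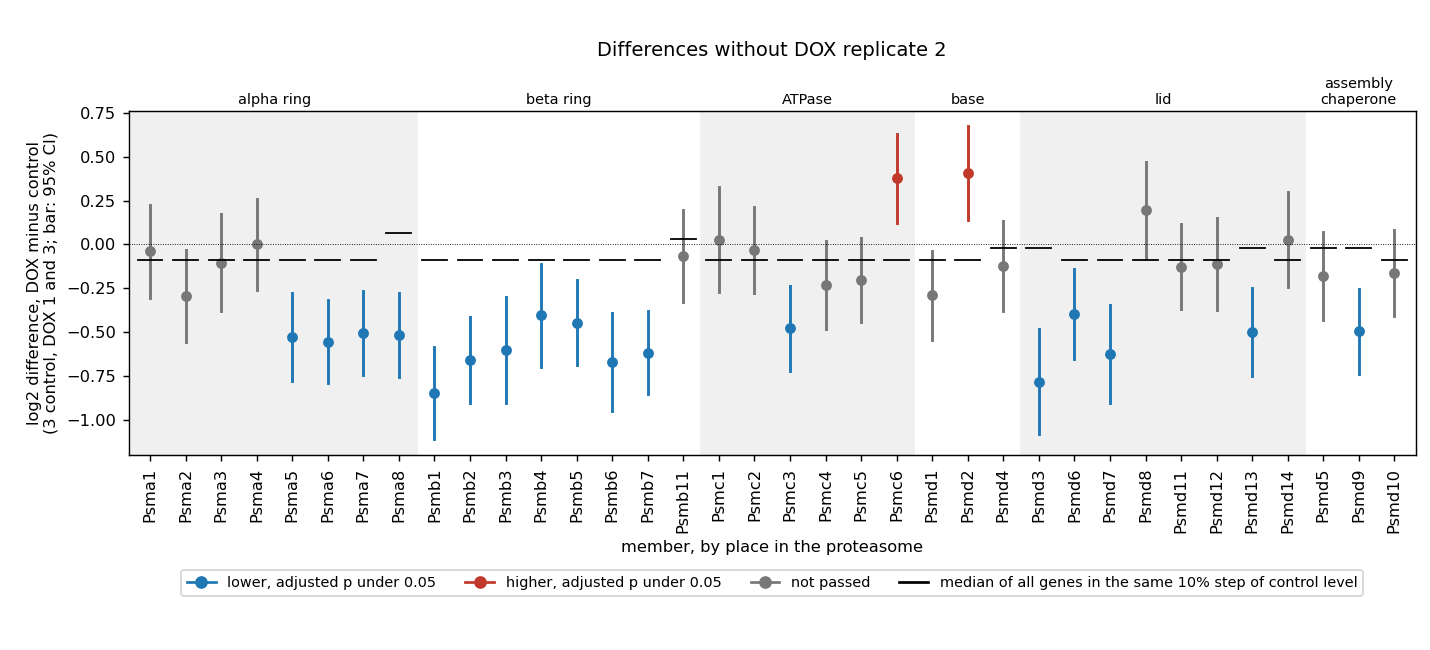
Log2 difference of each member, DOX minus control, without DOX replicate 2 (points) with 95% confidence intervals (bars), from 3 control arrays and DOX replicates 1 and 3. Psmb1 to Psmb7 all lie below 0 and past the threshold, whereas 4 of 6 ATPases did not pass. Psmc6 and Psmd2 are the only members above 0 and past the threshold. Short black lines give the median of all genes in the same 10% step of control level.

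Of the 6 ATPases, 1 fell and 1 rose without DOX replicate 2, and the median difference was −0.12. All 6 lie in the highest 10% step of control level. There 30.2% of genes fell and 16.6% rose in that fit, with a median of −0.09, so the ATPases as a class did not stand out. Psmc3 read 9.02, 9.04 and 9.11 in control arrays and 8.63, 8.14 and 8.53 in DOX arrays. All DOX arrays were below control, and Psmc3 fell by 0.48 (SE 0.11, limma adjusted p = 0.00825).

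Psmc6 read 9.80, 9.65 and 9.85 in control arrays and 10.12, 7.42 and 10.18 in DOX arrays. DOX replicates 1 and 3 were above every control array and DOX replicate 2 was far below, so that the sign depended on that array. The difference was −0.53 (SE 0.73, limma adjusted p = 0.695) with 6 arrays and 0.38 (SE 0.12, limma adjusted p = 0.0324) with 5. The 5-array call was kept in 6 of 13 alternatives. Psmc1, Psmc2, Psmc4 and Psmc5 differed by 0.03, −0.03, −0.23 and −0.20 and did not pass.

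Among the 3 base subunits without ATPase activity, Psmd2 was the only one to pass. Psmd2, the scaffold subunit at the center of the base, read 10.72, 10.52 and 10.75 in control arrays and 11.14, 10.06 and 10.997 in DOX arrays. It was higher than control in DOX replicates 1 and 3 and lower in DOX replicate 2. It rose by 0.41 (SE 0.12, limma adjusted p = 0.0289) without DOX replicate 2, a call kept in 7 of 13 alternatives, and differed by 0.07 (limma adjusted p = 0.904) with 6 arrays. Psmd1, the other large scaffold, read 10.24, 10.25 and 10.37 in control arrays and 10.08, 8.85 and 9.91 in DOX arrays. Its groups did not overlap, and its 5-array difference of −0.29 missed the threshold (limma adjusted p = 0.0888). Psmd4, a ubiquitin receptor, differed by −0.12 (95% confidence interval −0.38 to 0.14).

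Among the lid subunits, without DOX replicate 2, Psmd3, Psmd6, Psmd7 and Psmd13 fell, and Psmd8, Psmd11, Psmd12 and Psmd14 did not pass. Of genes in the top 2 steps of control level, 28.1% fell in that fit. Psmd3 read 8.76, 8.86 and 8.68 in control arrays and 8.17, 7.60 and 7.79 in DOX arrays. The 3 DOX arrays were all lower, and Psmd3 fell by 0.78 (SE 0.14, limma adjusted p = 0.0015), to 58.2% of control. The partner of the deubiquitinase, Psmd7, fell by 0.62, and the deubiquitinase gene itself, Psmd14, differed by 0.03 (95% confidence interval −0.24 to 0.30). Psmd8 read 10.04, 10.09 and 9.98 in control arrays and 10.39, 8.30 and 10.07 in DOX arrays. DOX replicate 1 was high and DOX replicate 3 was inside the control range, and the difference of 0.19 did not pass (limma adjusted p = 0.296).

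The 3 assembly chaperones had every DOX array below control, and 1 passed without DOX replicate 2. Psmd9 read 8.36, 8.29 and 8.28 in control arrays and 7.88, 6.58 and 7.75 in DOX arrays, and fell by 0.50 (SE 0.11, limma adjusted p = 0.00698). Psmd10, also known as gankyrin, read 9.35, 9.26 and 9.30 in control arrays and 9.07, 7.39 and 9.21 in DOX arrays. Its groups did not overlap, but the difference of −0.16 did not pass (limma adjusted p = 0.324), nor did that of Psmd5 (−0.18, limma adjusted p = 0.287).

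The medians of the core and the regulatory particle stood apart in a direction that depended on the array and, on DOX replicate 2, on the members counted. Without DOX replicate 2, 11 of 16 core members fell and none rose, and 6 of 20 regulatory members fell and 2 rose. In the same fit 28.1% of genes in the top 2 steps of control level fell and 18.4% rose. The regulatory share that fell was close to that. The median difference was −0.51 for the core and −0.17 for the regulatory particle, 0.34 lower for the core. Within the core it was −0.62 for Psmb1 to Psmb7 and −0.29 for Psma1 to Psma7, beside −0.26 for the lid. On DOX replicate 3 the median was −0.22 for Psma1 to Psma7 and −0.23 for the regulatory particle. On DOX replicate 1 these medians were −0.37 and −0.18. By array, the core median minus the regulatory median was −0.29 in DOX replicate 1 and −0.32 in DOX replicate 3, against −0.01 to 0.03 in control arrays. The control arrays themselves make up the mean they are measured from, which draws their values toward 0. On DOX replicate 2 it was 0.30, with the core at −1.25 and the regulatory particle at −1.55 from control. With 6 arrays the medians were −0.70 and −0.69, and their difference of −0.01 changed sign when DOX replicate 1 (0.07) or DOX replicate 3 (0.01) was left out, or with the mean over probe sets (0.01). Leaving out the tissue-restricted members and the assembly chaperones gave −0.39 with 5 arrays and −0.19 with 6. On DOX replicate 2 the medians were then −1.43 for the core and −1.31 for the regulatory particle, the core being lower there as well. The particles were compared by medians only, with no test.

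**Figure D3:**
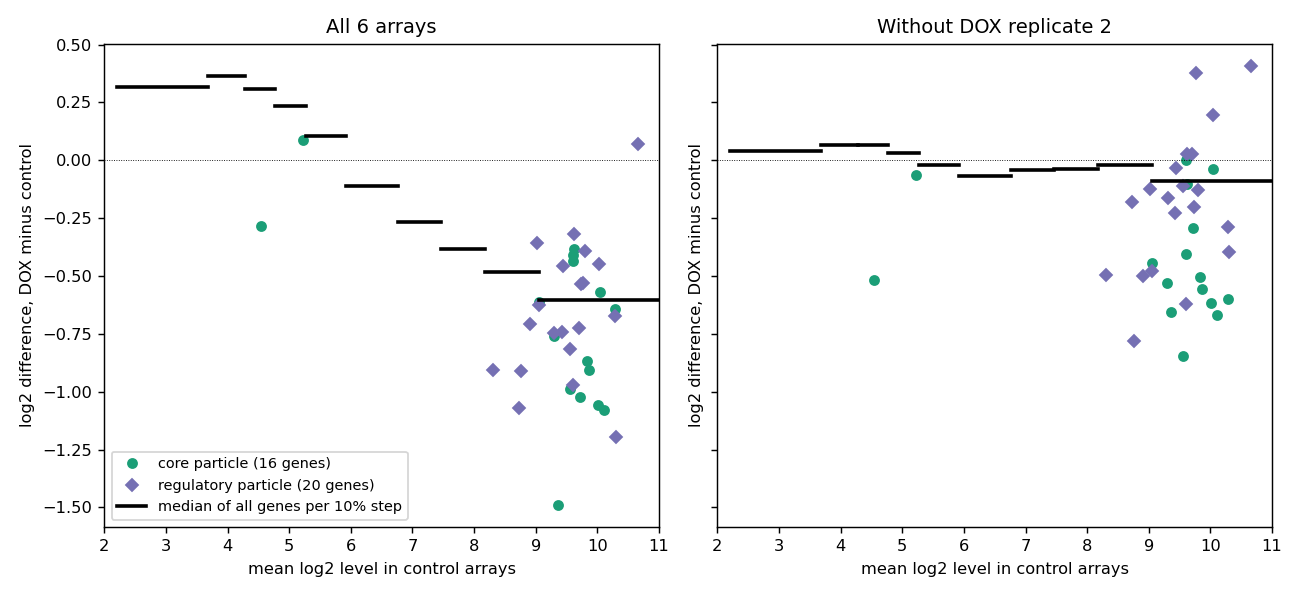
Log2 difference, DOX minus control, of core (circles) and regulatory (diamonds) members against their mean log2 level in control arrays, with all 6 arrays (left) and without DOX replicate 2 (right). Black lines give the median of all genes in each 10% step of control level, the highest step being drawn only up to 11. With 6 arrays the steps run from 0.36 in the second lowest to −0.60 in the highest, and with 5 arrays they stay between −0.09 and 0.07.

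Control level was set beside each member, because on DOX replicate 2 genes of high level read low in general. In the highest 10% step, which holds 29 of the 36 members, the median difference of all genes from control was −1.59 on that array. The members' median distance from the median of their own steps on that array was −0.01, with 18 of 36 below it. As differences from control, single members ranged on that array from −3.15 for Psmb2 and −2.86 for Psmd5 to 0.18 for Psma8 and 0.40 for Psmb11. Among the 34 members of the top 2 steps the highest were −0.60 for Psmd2 and −0.50 for Psmb4. With 6 arrays the members' median distance from the median of their steps was −0.14, with 24 of 36 below it.

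In the fit without DOX replicate 2 the median of the highest step was −0.09, and 28 of 36 members lay below the median of their step. The members' median distance from it was −0.20. It was −0.43 for the 16 core members, of which 14 were below, and −0.11 for the 20 regulatory members, of which 14 were below. Measured against the 200 genes nearest in control level, the median distance was −0.18. The largest gap between DOX replicates 1 and 3 was 0.41, in Psmc1, and the median gap over members was 0.13.

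More than 1 probe set represents 5 of the members. Both probe sets of Psma5 and both of Psmb3 were lower without DOX replicate 2 (−0.53 and −0.67 for Psma5, −0.60 and −0.45 for Psmb3), and both of Psmd2 were higher (0.41 and 0.45). The probe sets of Psma3 disagreed: 2 differed by −0.10 and −0.09, while the other, which has the lowest level, differed by −0.56 (limma adjusted p over probe sets = 0.0166). The 2 probe sets of Psmc1 lay at 0.03 and −0.02. Several probe sets for 1 symbol can read near-identical copies of a gene, and the values of these 5 members are uncertain to that extent.

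The inducible counterparts of the cutting subunits were lower too. All 3 immunoproteasome genes fell without DOX replicate 2, and Psmb8 and Psmb10 passed with 6 arrays as well. Psmb8, which replaces Psmb5, read 7.20, 7.31 and 7.13 in control arrays and 4.61, 5.16 and 4.78 in DOX arrays, and fell by 2.36 (SE 0.21, limma adjusted p = 0.00377) with 6 arrays. With 5 arrays it fell by 2.52 (SE 0.12). Psmb10, which replaces Psmb7, fell by 1.18 (SE 0.17, limma adjusted p = 0.0229) with 6 arrays and fell by 1.24 (SE 0.12) with 5. Psmb9, which replaces Psmb6, differed by −1.08 (limma adjusted p = 0.187) with 6 arrays and fell by 1.396 with 5. Psmb8 lost its 6-array call without control replicate 2 (limma adjusted p = 0.0503) or 3 (0.0511), and Psmb10 lost it with any 1 array left out except DOX replicate 2 (adjusted p 0.0719 to 0.1999), and with the replicate block (0.133).

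The interferon-inducible activator genes Psme1 and Psme2 fell by 1.04 and 0.93 without DOX replicate 2 (limma adjusted p = 0.000127 each), and the other 3 of 5 genes of activators and the inhibitor did not pass. Of 5 core assembly factors, Pomp, the maturation protein of the core, fell by 0.44 (limma adjusted p = 0.0126), Psmg4 fell by 0.42 (limma adjusted p = 0.0234), and 3 did not pass. Sem1, a small lid subunit outside the Psmd naming, fell by 0.54 (limma adjusted p = 0.00878), and the other 5 further particle and associated genes did not pass. With 6 arrays none of these 16 genes passed, and the differences were −1.69 for Psme1, −1.16 for Psme2, −1.02 for Pomp, −0.46 for Psmg4 and −0.54 for Sem1.

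Of 3 measured regulators of proteasome genes, 2 rose without DOX replicate 2 and none passed with 6 arrays. Nfe2l1 read 10.11, 9.95 and 10.17 in control arrays and 11.28, 10.45 and 10.87 in DOX arrays. All 3 DOX arrays lay above control. It rose by 1.00 (SE 0.14, limma adjusted p = 0.000416) without DOX replicate 2 and differed by 0.79 (SE 0.25, limma adjusted p = 0.224) with 6 arrays. The related Nfe2l2 rose by 0.48 (limma adjusted p = 0.00815) without DOX replicate 2, and differed by 0.04 with 6 arrays. Ngly1, whose enzyme processes the Nfe2l1 protein, differed by −0.26 (limma adjusted p = 0.1997) with 5 arrays and −0.75 with 6. Of 7 genes that carry or extract ubiquitin-tagged proteins, Ubqln2, a ubiquitin-binding shuttle, rose by 0.97 (limma adjusted p = 0.000185) without DOX replicate 2 and differed by 0.60 (limma adjusted p = 0.446) with 6 arrays. Rad23b, another shuttle, rose by 0.35 (limma adjusted p = 0.0453) without DOX replicate 2 but differed by −0.11 with 6 arrays. The other 5 did not pass.

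**Figure D4:**
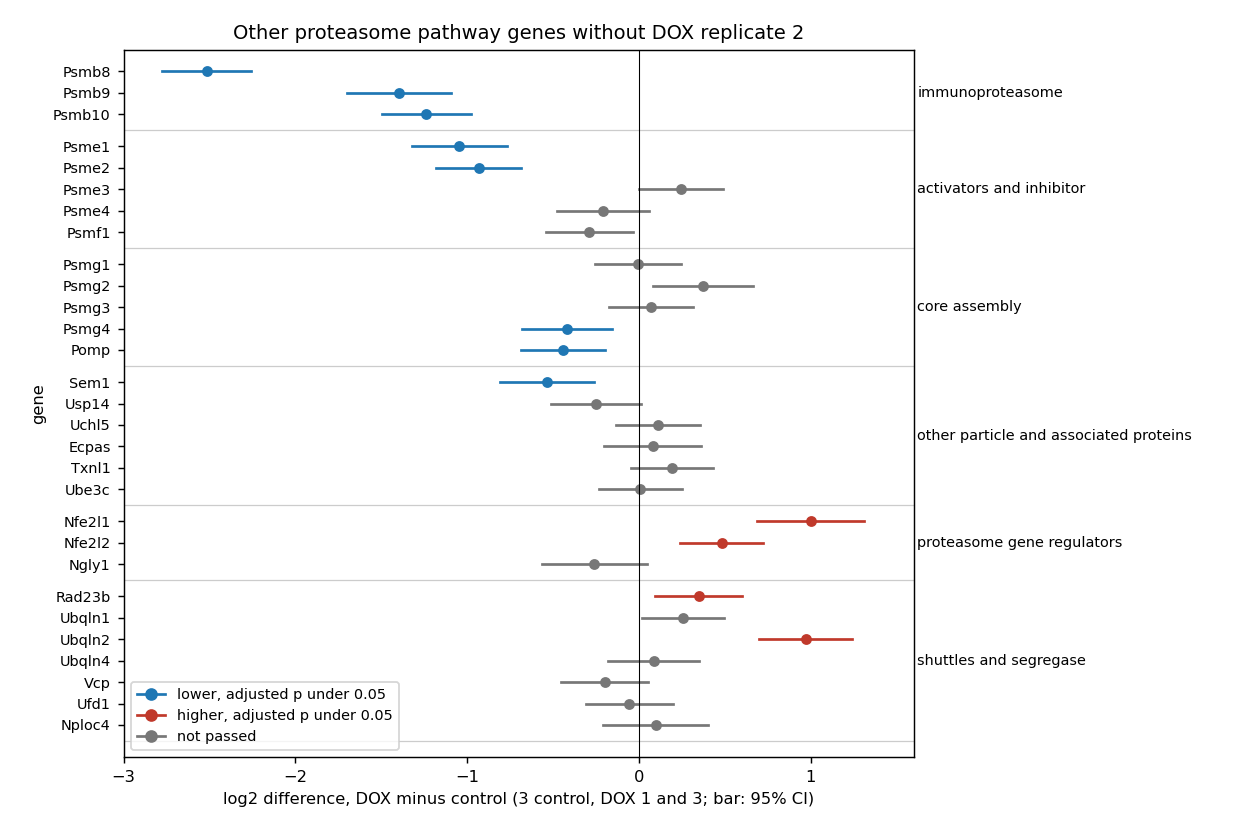
Log2 difference, DOX minus control, of the other genes of the proteasome pathway without DOX replicate 2 (points) with 95% confidence intervals (bars). The immunoproteasome genes lie lowest, between −2.52 and −1.24, and Nfe2l1 and Ubqln2 lie highest, at 1.00 and 0.97.

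The factor encoded by Nfe2l1 is known to bind the antioxidant response element, so the promoters of the members were searched for the core of that element, TGACNNNGC, on both strands. Windows ran from 250 bases before to 50 bases after each gene start (RefSeq, GRCm38.p6), and 29 of the 36 members had one. Psma8, Psmb1, Psmb2, Psmb7, Psmc3, Psmd3 and Psmd7 had no entry in the table used. All 7 fell without DOX replicate 2, so the shares given here miss only members that fell. The letters were found in 5 of the 29 members, 17.2%, against 14.0% of all 27025 genes in the table. Of members with a window, 3 of 10 that fell without DOX replicate 2 held them (Psmb5, Psmb6 and Psmd9), as did 1 of 2 that rose (Psmc6) and 1 of 17 that did not pass (Psmd12). A match is a description of letters and shows no binding.

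The stretches below show where the letters lie, in capitals, in the 2 cutting subunits and in Psmd9, which fell, and in Psmc6, which rose. The first 3 are the 60 bases just before the gene start, written 5′ to 3′ on the gene's strand. In Psmb5 (chr14:54617996-54618055, minus strand) the letters begin 47 bases before the start, and in Psmb6 (chr11:70525297-70525356, plus strand) 9 bases before it. In Psmd9 (chr5:123228130-123228189, plus strand) they begin 31 bases before the start. The stretch of Psmc6 (chr14:45329574-45329633, plus strand) runs from 250 to 191 bases before the start and holds the letters on the opposite strand. Psmd12, which also holds the letters and did not pass, is not shown. Psmd2 (chr16:20651592-20651651, plus strand), which rose, is shown over the last 60 bases before its start as a promoter without these letters.
Psmb5: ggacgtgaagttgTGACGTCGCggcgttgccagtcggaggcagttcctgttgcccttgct
Psmb6: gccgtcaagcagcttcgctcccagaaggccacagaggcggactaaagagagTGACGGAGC
Psmd9: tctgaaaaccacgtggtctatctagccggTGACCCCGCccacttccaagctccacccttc
Psmc6: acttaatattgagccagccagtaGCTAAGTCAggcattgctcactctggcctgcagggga
Psmd2: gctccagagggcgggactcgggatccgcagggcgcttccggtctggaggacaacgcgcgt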

How the data were processed

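The deposited values are log2 levels per probe set of a 1-colour array. The submitters' processing notes name RMA and affy, and versions, genome build and annotation build are not given in the sources used here. The log2 values were used as deposited by the authors. Of 34760 probe sets 21640 had 1 gene symbol. For genes with several, the probe set highest on average across the 6 arrays was kept, which left 19937 genes.

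DOX was set against control by limma 3.58.1 (R 4.3.3; moderated, two-sided, groups alone in the model). Adjustment was Benjamini-Hochberg across the 19937 genes, and 0.05 was the limit. The fit was repeated without DOX replicate 2. Differences are DOX minus control, and "fell" and "rose" mean past the limit in the fit named. The scripts were tested on simulated data that held no array like DOX replicate 2. The members, lists and tests were chosen with earlier results of these data known. Described in full by rule were Psmb5, Psmb6, Psmb7 and, in each class, the members with the lowest and highest 5-array difference; other lists got at most 4 genes each. Some genes of the lists were not analysed here. The number of arrays limits the precision. Alternatives covered normalization, filters, probe sets, variance, array weights and arrays left out.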

Additional observations from a re-analysis of the deposited data

How the results depend on the processing

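With 6 arrays the main count of members past the threshold was 0 in each direction, and the lower count became 3 after a second quantile normalization and 17 with array weights, which gave DOX replicate 2 a weight of 0.025. Leaving out 1 array at a time gave 0 to 17 lower and 0 to 2 higher, the upper values without DOX replicate 2. The core minus regulatory median of −0.012 became 0.012 with the mean over probe sets and ran from −0.338 to 0.068 with 1 array left out. With 5 arrays the lower count was 15 to 16 and the higher count 0 to 1 with a further array left out, and the higher count was 0 with median centring, array weights and the replicate block. The members' median then ran from −0.332 to −0.219, and the core minus regulatory median from −0.350 to −0.288, with −0.389 without tissue-restricted members and chaperones and −0.313 with the replicate block. Of the 17 members that fell, 14 kept their call in every alternative that could be fitted, the others being Psmb3 (12 of 13), Psmd6 (10 of 13) and Psmb4 (7 of 13). Leaving out DOX replicate 1 or 3 from the 5 arrays leaves 1 DOX array, so those fits take their spread from control arrays alone. The filters leave the members' differences unchanged, and the mean over probe sets changes only members with several. Keeping a call in these alternatives is therefore a weak check. The main fits did not pair samples by replicate number. Same-numbered arrays correlated at 0.117, 0.194 and 0.085 in their deviations from group means. Control arrays correlated with DOX arrays of other numbers at no more than 0.116, −0.182 and 0.088. With 3 arrays a group, these values cannot decide whether the samples were paired. The replicate block gave 0 members in either direction with 6 arrays and 16 lower with 5, and over all genes 159 lower and 3 higher with 6. With 5 arrays control replicate 2 has no DOX partner and adds nothing to the blocked difference. Psmb4, for example, was −0.403 with the block and without control replicate 2. Over all genes with 6 arrays (450 lower and 24 higher), the counts were 61 to 264 lower and 2 to 9 higher with an array other than DOX replicate 2 left out, 2933 and 2500 with array weights, and 185 higher after the second quantile normalization. Median centring left 7 higher with 6 arrays, and moved the median of all genes from 0.02 to −0.18. With 5 arrays, 1550 to 2515 genes were higher with a further array left out. Of the calls over all genes 5.06% were higher with 6 arrays and 22.8% after the second quantile normalization, and 46.2% with 5 arrays and 34.8% after median centring.

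Signs of 6-array differences turned as follows. With median centring Psmd2 was −0.134, Psmb11 −0.116 and Nfe2l2 −0.168. With the second quantile normalization Psmb11 was −0.164 and Rad23b 0.133. With array weights Psmd8 was 0.147, Psmc6 0.341, Psmc1 0.060, Psmb11 −0.062 and Rad23b 0.339. With 1 array left out Psmd2 ran from −0.133 to 0.408, Psmd8 from −0.850 to 0.194, Psmc6 from −1.003 to 0.378, Psmc1 from −0.592 to 0.027, Psma4 from −0.623 to 0.000505, Psmd14 from −1.111 to 0.028, Psmb11 from −0.065 to 0.185, Nfe2l2 from −0.199 to 0.480 and Rad23b from −0.364 to 0.348. Of 5-array differences, Psma4 was −0.071 with the replicate block, −0.044 with the second quantile normalization, −0.067 with median centring and −0.027 with array weights. Psmd14 was −0.038 with the replicate block, −0.019 with the second quantile normalization and −0.040 with median centring. Psmc1 was −0.017 with the second quantile normalization and −0.041 with median centring. With a further array left out Psma1 ran from −0.116 to 0.012, Psma4 from −0.071 to 0.040, Psmc1 from −0.178 to 0.231, Psmc2 from −0.109 to 0.046 and Psmd14 from −0.038 to 0.113. The cause of these changes was not tested.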
